A study of Mus musculus with 6 samples.

Results

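The genes described here are 37 genes of the Wnt pathway, chosen by name from 32564 genes: 10 Frizzled receptors, the co-receptors Lrp5 and Lrp6, 3 Wnt ligands, the ligand-modifying enzyme Porcn, the secreted modulators Dkk3 and Sfrp1, the receptor-turnover genes Lgr4, Rnf43 and Znrf3, and the intracellular and planar polarity genes named below. All 37 were found, through 168 transcripts. They were measured by RNA sequencing of cells sorted from the brain's subependymal zone, in gfap:GFP mice (strain C56BL/6J in the labels' spelling, 3 months old), in which green fluorescent protein is driven by the promoter of Gfap, a gene of astrocytes and adult neural stem cells. The labels call the sorted cells quiescent neural stem cells. In 3 libraries the cells came from mice given an injection into the ventricles of an antagomir against miR-204, a modified oligonucleotide that binds and blocks that microRNA, and in 3 libraries from mice given artificial cerebrospinal fluid (vehicle). Both groups carried the same transgene, and per the series' design text cells were isolated 3 days after the injection. No injection of an unrelated oligonucleotide is labelled, so blocking of miR-204 and the presence of an oligonucleotide cannot be told apart as sources of a difference. The labels do not say whether replicates came from separate animals or from pools, so p-values measure the spread between these libraries, which may be technical.

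Wnt ligands are secreted, lipid-modified proteins that bind Frizzled receptors. In the canonical branch, Frizzled and its co-receptor Lrp5 or Lrp6 recruit Dishevelled, which stops the destruction complex (Axin, Apc and Gsk3b) from degrading β-catenin, so that β-catenin enters the nucleus and acts with TCF and LEF transcription factors. In the planar polarity branch, Frizzled, Vangl2 and Ror receptors act without β-catenin on cell orientation and movement. In the subependymal zone, canonical Wnt signalling is known for its effects on stem cell division and neurogenesis, and planar polarity genes for orienting the cilia of ependymal cells.

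The libraries held 14866453 to 19694409 estimated counts each, in which 3 counts, taken as the floor of detection, correspond to 0.152 to 0.201 CPM (counts scaled to library size). Levels are given per transcript length as TPM where genes are compared with each other. Of the 8 markers of astrocytes and quiescent stem cells all were present, with a summed level of 3707 to 5086 TPM with antagomir and 4781 to 5061 TPM with vehicle. Markers of other cell types were present as well. Those of oligodendrocytes summed to 11129 to 15349 TPM with antagomir and 6471 to 13906 TPM with vehicle, those of ependymal cells to 2055 to 3491 TPM with antagomir and 2827 to 3722 TPM with vehicle and those of neuroblasts to 835 to 1828 TPM with antagomir and 537 to 1134 TPM with vehicle. Vehicle replicate 1 stood apart in markers of microglia, at 2290.5 TPM, against 168 to 350.3 TPM with antagomir and 208 to 330.2 TPM in the other vehicle libraries. In such mixed RNA, fewer cells of a type and less RNA per cell cannot be told apart.

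The mature miR-204-5p of the RefSeq annotation (GRCm38.p6, chr19:22750610-22750631, + strand) is shown first, with its seed (bases 2 to 8) in capitals, because the antagomir was directed against it. The sites that follow are 27-base windows of the 3′ UTRs of Wnt genes in GENCODE M21 transcripts (GRCm38), with the 8mer, 7mer-m8 or 7mer-A1 letters in capitals. In the 8mer and the 7mer-A1 the last capital A lies opposite base 1 of miR-204-5p, outside its seed. They are the matches to the whole seed in Fzd4, Sfrp1, Znrf3, Wnt7b and Lgr4, and the shorter match in Dkk3, which had the highest TPM of the 37 genes.
miR-204-5p: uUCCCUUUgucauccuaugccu
Fzd4, chr7:89409115-89409141, + strand: tgcctaatgagaggaAAAGGGAAggtg
Fzd4, chr7:89410582-89410608, + strand: tgactctggcacaggAAAGGGAtgaaa
Fzd4, chr7:89412580-89412606, + strand: gcagctctgcccaacAAAGGGAgttga
Sfrp1, chr8:23448537-23448563, + strand: cagtttcacagcataAAAGGGAggaca
Sfrp1, chr8:23448775-23448801, + strand: agcagttccagacaaAAAGGGAggcta
Znrf3, chr11:5278287-5278313, - strand: ttttgtttatttttaAAAGGGAgagag
Znrf3, chr11:5277171-5277197, - strand: ggggaggggaagtggAAAGGGAgtgtc
Wnt7b, chr15:85537129-85537155, - strand: gggaaagtgaaccacAAAGGGAccatg
Lgr4, chr2:110012988-110013014, + strand: tacttcagggccaaaAAAGGGActatc
Dkk3, chr7:112116630-112116656, - strand: ggcagcacagcgtggcAAGGGAAtgtg

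The 3′ UTR of each gene's most abundant coding transcript was searched on the sense strand for the letters AAAGGGAA (8mer), AAAGGGA (7mer-m8) and AAGGGAA (7mer-A1), counting each place once under its longest form. An 8mer match stood in Fzd4 and Apc, that is in 5.405% of the 37 Wnt genes, against 5.809% of the 13806 tested protein-coding genes searched. An 8mer or 7mer-m8 match stood in 7 Wnt genes (18.92%, against 13.48% of all genes searched), which adds Fzd8, Sfrp1, Znrf3, Wnt7b and Lgr4. Any of the 3 forms stood in 10 Wnt genes (27.03%, against 20.43%), which adds Dkk3, Fzd3 and Fzd7. The 3′ UTRs of the Wnt genes were longer, with a median of 1614 bases against 881 bases over all genes searched, and a longer UTR holds more matches. The other 27 Wnt genes had no match in the 3′ UTR of their most abundant coding transcript. Some of these UTRs were short, at 88 bases for Tcf7l1, 185 for Nkd1, 210 for Gsk3b and 374 for Fzd5. Other coding transcripts of these genes were not searched. The searched transcript had another length in the deposited files than in GENCODE M21 for 8 of the 37 genes, 4 of which held a match: Fzd3 (4157 bases in the files and 12734 in GENCODE), Apc (8867 and 12811), Fzd8 (3346 and 5974) and Wnt7b (3492 and 3134). Their matches may lie outside the transcript that the authors quantified. The same seed is carried by miR-211-5p and miR-7670-3p in the RefSeq table, so a match does not single out miR-204-5p.

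The Wnt pathway was broadly expressed in the sorted cells in both groups, and no member passed the test between them. Of the 37 genes, 3 had a mean level of at least 100 TPM (Dkk3, Ctnnb1 and Apc), 21 had 10 to 100 TPM, 11 had 1 to 10 TPM, and 2, Fzd10 and Ror1, were under 1 TPM. Together they held 1522 ± 127 TPM in the antagomir libraries and 1454 ± 33.1 TPM in the vehicle libraries (SD, n = 3 each). After the filter on low counts 35 were tested, without Fzd10 and Ror1, and 0 of them were called by edgeR (quasi-likelihood test, Benjamini-Hochberg adjusted p under 0.05). It called 0% of the 15012 genes tested, and the smallest adjusted p over all genes was 0.949, the same as over the Wnt genes. DESeq2 called 5 genes of the whole table, Fam83d, Htr3a, Tlr1, Frmpd4 and Tg, and 0 Wnt genes. At an unadjusted edgeR p under 0.05 there were 616 genes (4.1%) and among them 1 Wnt gene, Rnf43, on the higher side, where 2.18% of all genes lay, and 0 on the lower side, where 1.93% of all genes lay.

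The fold changes of the Wnt genes lay on both sides of 0. Of the 35 tested, 19 had a positive and 16 a negative log2 fold change of antagomir over vehicle, with a median of 0.016 against -0.0062 over all genes tested. In 30 of them (85.7%, against 80.8% of all genes) the log2 fold change lay within 0.5 of 0. Beyond 0.5 lay Ror2, Lef1, Rnf43 and Wnt5a on the positive side and Tcf7 on the negative side. In CPM, the 3 antagomir libraries all lay above the 3 vehicle libraries for 5 Wnt genes (Ror2, Lef1, Rnf43, Wnt5a and Dvl2), 14.3% of those tested, against 5.07% of all genes. They all lay below them for 1, Dvl1 (2.86%, against 5.45%). Ror2 and Lef1 passed the filter on low counts only with their antagomir libraries, where they were high. Their places in these shares and beyond 0.5 thus rest partly on that filter and lend no support. With 1 library left out in turn, 14.3 to 22.9% of the Wnt genes lay wholly above, against 7.95 to 14.1% of all genes. The shares were closest without vehicle replicate 1 (14.3% of the Wnt genes and 14.1% of all genes) and farthest apart without antagomir replicate 3 (22.9% and 8.85%). In TPM the groups did not overlap for Ror2, Lef1, Rnf43 and Ctnnb1, all higher with antagomir (11.4% of those tested, against 7.05% of all genes higher and 3.7% lower on that scale), while Wnt5a, Dvl2 and Dvl1 overlapped on that scale.

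**Figure D1:**
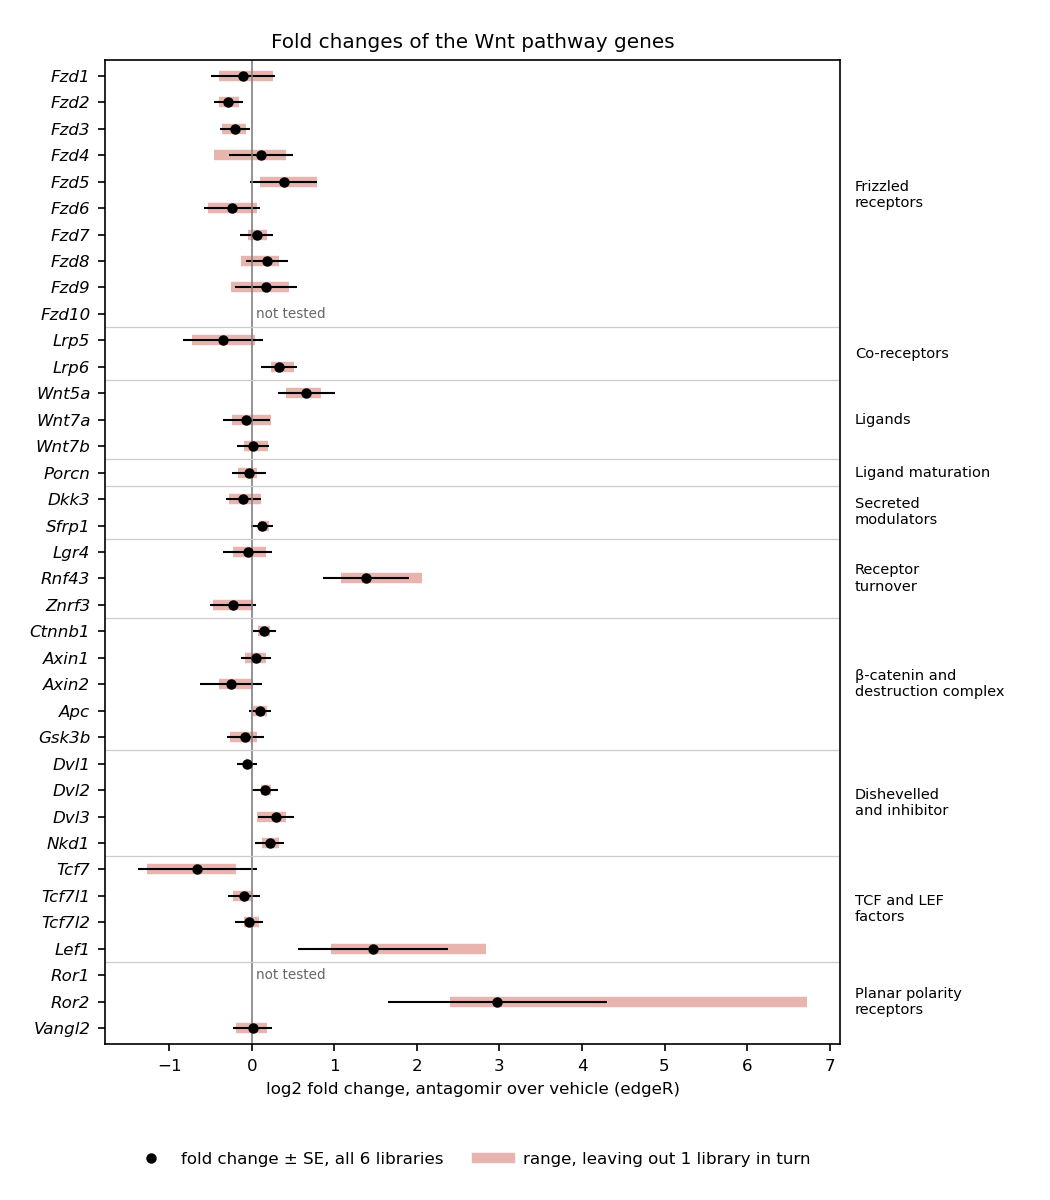
Log2 fold change of antagomir over vehicle for the 35 tested Wnt genes, grouped by role (points with SE bars), over the range of the same value with 1 library left out in turn (pale bars). Most points lie near 0, Ror2, Lef1, Rnf43 and Wnt5a lie to the right, and the bar of Ror2 reaches 6.72.

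Frizzled receptors, the cell-surface receptors of Wnt ligands, summed to 181 ± 17.95 TPM in the antagomir libraries and 184 ± 4.38 TPM in the vehicle libraries (SD, n = 3 each). Fzd2, Fzd3 and Fzd8 were the most abundant of the 10. Fzd2 had 54.5, 39.1 and 48.7 TPM in the antagomir libraries, against 61.5, 47.99 and 55.6 TPM in the vehicle libraries. Fzd3, which also acts in planar polarity and axon guidance, had 33.3, 51.3 and 40.1 TPM in the antagomir libraries, against 40.8, 49.8 and 46.9 TPM in the vehicle libraries. Fzd8 had 26.4, 26.5 and 46.8 TPM in the antagomir libraries, against 22.7, 31.1 and 30.2 TPM in the vehicle libraries. The 3 receptors overlapped between the groups, and antagomir replicate 3 was the highest library for Fzd8. Their log2 fold changes were -0.29 ± 0.18 (SE) for Fzd2, -0.20 ± 0.18 for Fzd3 and 0.18 ± 0.26 for Fzd8.

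Fzd1 had 15.8, 5.72 and 18.3 TPM with antagomir, against 14.96, 11.8 and 14.2 TPM with vehicle. Fzd6, the second Frizzled receptor of the planar polarity set, had 8.22, 12.4 and 9.52 TPM with antagomir, against 6.18, 12.5 and 15.3 TPM with vehicle. Fzd7 had 8.78, 12.3 and 11.1 TPM with antagomir, against 9.54, 10.7 and 9.34 TPM with vehicle. Antagomir replicate 2 was the lowest library for Fzd1, and the groups overlapped for each of these receptors. Fzd4, the receptor of the ligand Norrin in retinal vessels and the carrier of the 3 seed matches printed above, had 11.4, 3.74 and 5.50 TPM with antagomir, against 7.07, 6.34 and 4.81 TPM with vehicle. Fzd9 had 14.6, 5.67 and 8.60 TPM with antagomir, against 9.23, 7.26 and 7.82 TPM with vehicle. In both of them antagomir replicate 1 was the highest library and antagomir replicate 2 the lowest. Fzd5 had 2.93, 8.56 and 11.3 TPM with antagomir, against 10.05, 2.98 and 4.68 TPM with vehicle, with groups that overlapped over most of their range. The log2 fold changes were -0.11 ± 0.39 (SE) for Fzd1, 0.11 ± 0.39 for Fzd4, 0.38 ± 0.41 for Fzd5, -0.24 ± 0.34 for Fzd6, 0.058 ± 0.20 for Fzd7 and 0.17 ± 0.38 for Fzd9. Fzd10 was near the floor, with 1, 6 and 13 counts in the antagomir libraries, against 10, 0 and 0 counts in the vehicle libraries, and was not tested.

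**Figure D2:**
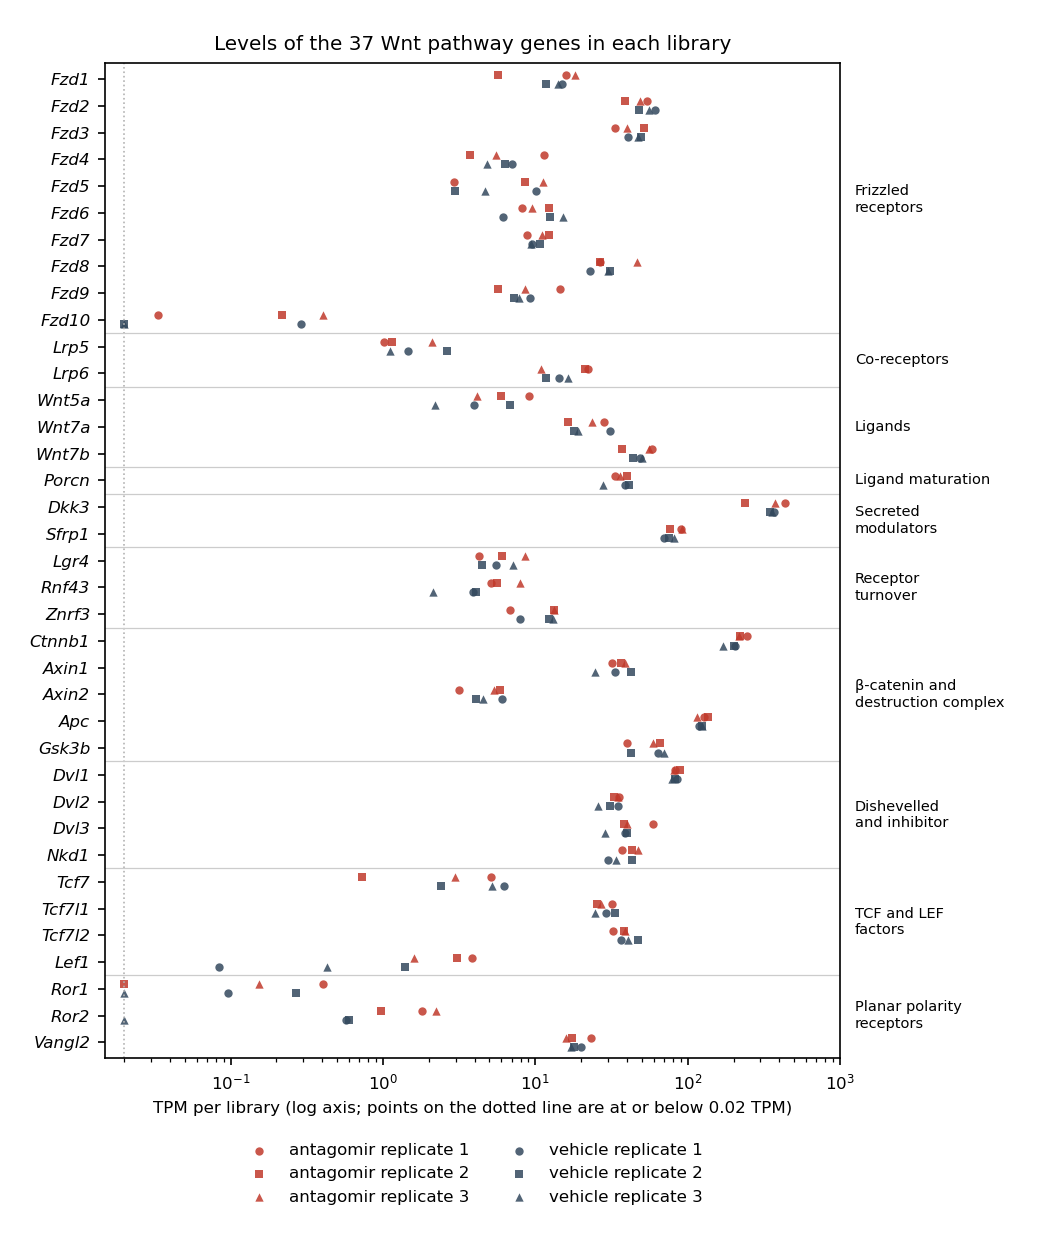
Level in TPM (log axis) of the 37 Wnt genes in each library, antagomir above vehicle within each row, grouped by role. Dkk3, Ctnnb1 and Apc lie at or above 100 TPM in every library, and Fzd10 and Ror1 lie at the low end, with points on the dotted line at 0 TPM.

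The co-receptors differed in level. Lrp6 had 22.2, 21.3 and 10.9 TPM in the antagomir libraries, against 14.3, 11.8 and 16.3 TPM in the vehicle libraries, and Lrp5 had 1.02, 1.15 and 2.09 TPM in the antagomir libraries, against 1.47, 2.64 and 1.11 TPM in the vehicle libraries. The groups overlapped for both, and every library held more Lrp6 than Lrp5. The log2 fold change was 0.33 ± 0.22 (SE) for Lrp6 and -0.35 ± 0.49 for Lrp5.

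Of the 3 ligands, Wnt7b and Wnt7a, known for β-catenin signalling in the vessels of the brain, were the more abundant. Wnt7b had 58.1, 37.3 and 55.5 TPM in the antagomir libraries, against 48.6, 43.7 and 49.9 TPM in the vehicle libraries, and Wnt7a had 28.1, 16.5 and 23.6 TPM in the antagomir libraries, against 30.8, 18.1 and 19.1 TPM in the vehicle libraries. Antagomir replicate 2 was the lowest library for both, and the groups overlapped, with log2 fold changes of 0.016 ± 0.19 (SE) and -0.068 ± 0.28. Wnt5a (ENSMUSG00000021994.15, chromosome 14, 28504750 to 28527448, + strand in GRCm38), the ligand best known for signalling without β-catenin, was at a lower level, with 9.10, 5.92 and 4.13 TPM in the antagomir libraries, against 3.94, 6.83 and 2.20 TPM in the vehicle libraries. In CPM its values were 19.3, 16.5 and 13.04 CPM in the antagomir libraries, against 12.5, 12.2 and 6.19 CPM in the vehicle libraries. On the CPM scale every antagomir library lay above every vehicle library, by a margin of less than 1 CPM between antagomir replicate 3 and vehicle replicate 1, and on the TPM scale the groups overlapped. Its log2 fold change was 0.66 ± 0.34 (SE, edgeR adjusted p = 0.949), and 0.41 to 0.84 with 1 library left out in turn. Porcn, the enzyme that attaches the lipid to Wnt ligands, had 33.5, 39.9 and 36.1 TPM in the antagomir libraries, against 38.9, 41.3 and 27.7 TPM in the vehicle libraries, with a log2 fold change of -0.031 ± 0.21 (SE).

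Dkk3, a divergent member of the Dickkopf family of secreted proteins, was the most abundant Wnt gene, at rank 304 by TPM among the 15012 genes tested. It had 432, 238 and 377 TPM in the antagomir libraries, against 367, 346 and 359 TPM in the vehicle libraries. The vehicle libraries lay close together, and the antagomir libraries spread to both sides of them, with replicate 1 highest and replicate 2 lowest. Sfrp1, a secreted protein that binds Wnt ligands away from their receptors, had 90.3, 76.7 and 91.98 TPM in the antagomir libraries, against 70.4, 75.3 and 81.4 TPM in the vehicle libraries. The groups overlapped, and the log2 fold changes were -0.10 ± 0.21 (SE) for Dkk3 and 0.12 ± 0.14 for Sfrp1. Sfrp1 carries a pair of the 7mer-m8 matches printed above, and Dkk3 a 7mer-A1 match.

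Rnf43 was the one member with an unadjusted p under 0.05. Rnf43 (ENSMUSG00000034177.15, chromosome 11, 87662722 to 87735539, + strand in GRCm38) and its relative Znrf3 are membrane-bound ubiquitin ligases that remove Frizzled receptors from the cell surface, and Lgr4, a receptor of R-spondins, holds them back. Rnf43 had 8.03, 11.1 and 16.4 CPM in the antagomir libraries, against 2.59, 7.95 and 3.10 CPM in the vehicle libraries. Every antagomir library lay above every vehicle library, but antagomir replicate 1 and vehicle replicate 2 were almost level. Its log2 fold change was 1.38 ± 0.52 (SE, unadjusted p = 0.0288, edgeR adjusted p = 0.949). The summed counts were 587 with antagomir and 237 with vehicle, a library-size-scaled ratio of 2.72 (95% counting interval 2.34 to 3.18), an interval that covers counting error only. With 1 library left out in turn the log2 fold change was 1.08 (without antagomir replicate 3) to 2.06 (without vehicle replicate 2). It was 0.84 with effective length offsets and 0.74 in limma on log2(TPM + 1). With those offsets, and without antagomir replicate 2, antagomir replicate 3 or vehicle replicate 3, no Wnt gene had an unadjusted p under 0.05. Znrf3 had 6.85, 13.2 and 13.3 TPM with antagomir, against 7.96, 12.3 and 13.04 TPM with vehicle, and Lgr4 had 4.29, 6.03 and 8.62 TPM with antagomir, against 5.52, 4.47 and 7.11 TPM with vehicle. Their groups overlapped, and their log2 fold changes were -0.23 ± 0.28 (SE) and -0.054 ± 0.30. Rnf43 thus differed in sign from Znrf3, a difference that was not tested. Axin2, which with Rnf43 and Znrf3 is a textbook transcriptional target of β-catenin, had a negative log2 fold change, given below. Leaving out vehicle replicate 1 for Axin2 or antagomir replicate 1 for Znrf3 turned the value positive, to 0.0099 and 0.014. Of 4 further transcriptional targets tested, 3 had a positive and 1 a negative log2 fold change.

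Reads of Rnf43 came from coding and from other transcripts. Its most abundant listed transcript was a retained intron, and the share of its TPM in transcripts annotated as protein coding was 57.4, 56.04 and 52.97% in the antagomir libraries, against 18.9, 43.2 and 37.03% in the vehicle libraries. The antagomir libraries all held the larger share. Of 20 members with TPM in both coding and other transcripts, 19 had coding TPM in every library, and among these the share did not overlap between the groups for 2, both higher with antagomir, where 4.8% of 8558 such genes were higher and 3.08% lower. The second was Gsk3b, with 94.8, 77.3 and 76.8% in the antagomir libraries, against 75.5, 66.8 and 71.8% in the vehicle libraries. Lrp6, Dvl1 and Apc also held much of their TPM outside coding transcripts, with shares of 41.9, 53.7 and 58.8% in the antagomir libraries, against 50.8, 47.1 and 41.2% in the vehicle libraries for Lrp6, 54.5, 44.3 and 48.6% in the antagomir libraries, against 44.7, 54.6 and 51.2% in the vehicle libraries for Dvl1 and 41.8, 31.04 and 40.8% in the antagomir libraries, against 33.9, 36.6 and 29.9% in the vehicle libraries for Apc. Those 3 genes overlapped between the groups. Shares were divided among similar transcripts by the authors' quantification model, and how much that division adds to their spread was not tested.

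**Figure D3:**
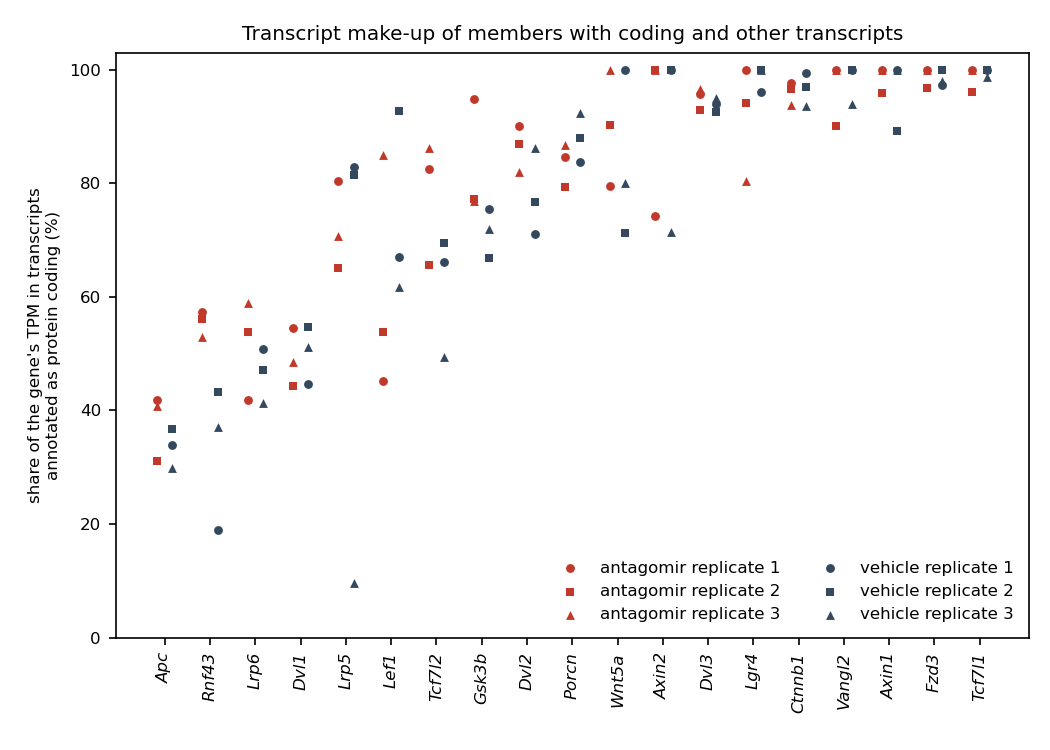
Share of TPM in transcripts annotated as protein coding, per library, for the 19 Wnt genes with coding and other transcripts and coding TPM in every library, antagomir left of vehicle for each gene. Rnf43 and Gsk3b are the genes whose antagomir points all lie above their vehicle points, and Lrp5 has 1 vehicle library near 10%.

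β-catenin (Ctnnb1), the signal carrier of the canonical branch, had 244, 221 and 216 TPM in the antagomir libraries, against 205, 201 and 171 TPM in the vehicle libraries. In TPM the antagomir libraries all lay above the vehicle libraries, with means of 227 ± 14.91 TPM in the antagomir libraries and 192 ± 18.7 TPM in the vehicle libraries (SD, n = 3 each). In CPM they overlapped, at 458, 414 and 391 CPM in the antagomir libraries, against 411, 393 and 336 CPM in the vehicle libraries, and the log2 fold change was 0.15 ± 0.14 (SE, edgeR adjusted p = 0.9503). Apc, the scaffold of the destruction complex, had 127, 135 and 115 TPM in the antagomir libraries, against 118, 124 and 125 TPM in the vehicle libraries. Gsk3b, the kinase that marks β-catenin for degradation, had 39.8, 66.2 and 59.1 TPM in the antagomir libraries, against 63.5, 42.4 and 69.6 TPM in the vehicle libraries. The groups overlapped for both, with log2 fold changes of 0.10 ± 0.13 (SE) for Apc and -0.079 ± 0.22 for Gsk3b.

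Axin1, the limiting scaffold of the complex, had 32.01, 36.3 and 39.02 TPM with antagomir, against 33.6, 42.5 and 24.5 TPM with vehicle. Axin2, a feedback inhibitor that canonical signalling itself induces, had 3.15, 5.89 and 5.37 TPM with antagomir, against 6.03, 4.08 and 4.53 TPM with vehicle. Its counts were 86, 104 and 132 counts in the antagomir libraries, against 184, 100 and 137 counts in the vehicle libraries. The groups overlapped for both genes, vehicle replicate 1 was the highest library for Axin2, and the log2 fold changes were 0.052 ± 0.18 (SE) for Axin1 and -0.25 ± 0.38 for Axin2. Without vehicle replicate 1 the Axin2 value was 0.0099. β-catenin and the genes of its destruction complex (Ctnnb1, Apc, Gsk3b, Axin1 and Axin2) together had 446, 465 and 435 TPM with antagomir, against 426, 414 and 395 TPM with vehicle. The groups did not overlap in this sum, to which Ctnnb1 gave the most. Of these genes only Ctnnb1 had groups that did not overlap in TPM by itself, and in CPM it overlapped. No share without overlap was worked out for sums of genes.

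The 3 Dishevelled genes pass the signal on from Frizzled in both branches, and Nkd1 is a feedback inhibitor that binds Dishevelled. Dvl1 was the most abundant, with 82.96, 89.6 and 81.9 TPM in the antagomir libraries, against 85.4, 83.1 and 79.1 TPM in the vehicle libraries. In CPM it had 130.4, 128 and 134 CPM in the antagomir libraries, against 136, 139.7 and 134 CPM in the vehicle libraries, the lowest relative spread of the 37 genes, with a coefficient of variation of 3.03% over the 6 libraries. The antagomir libraries all lay below the vehicle libraries by a small amount, with a log2 fold change of -0.064 ± 0.12 (SE). Dvl2 had 57.4, 52.1 and 52.2 CPM in the antagomir libraries, against 52.03, 48.1 and 44.5 CPM in the vehicle libraries. Its groups did not overlap, though antagomir replicate 2 and vehicle replicate 1 differed by less than 0.1 CPM, and its log2 fold change was 0.16 ± 0.15 (SE). Dvl3 had 59.3, 38.2 and 40.1 TPM with antagomir, against 38.6, 39.9 and 28.6 TPM with vehicle, and Nkd1 had 36.9, 43.1 and 46.9 TPM with antagomir, against 30.2, 43.1 and 34.1 TPM with vehicle. Antagomir replicate 1 was the highest library for Dvl3, the groups of both overlapped, and the log2 fold changes were 0.29 ± 0.22 (SE) for Dvl3 and 0.22 ± 0.18 for Nkd1. Summed, the 4 genes had 215, 203 and 204 TPM with antagomir, against 189, 197 and 167 TPM with vehicle, with all antagomir libraries above all vehicle libraries. In TPM more single genes lay wholly higher with antagomir (7.05%) than wholly lower (3.7%), and no such share was worked out for sums of genes.

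The TCF and LEF factors bind DNA with β-catenin. Tcf7l2 and Tcf7l1 were the abundant members of the family, and Tcf7 and Lef1 were scarce. Tcf7l2 had 32.4, 38.1 and 38.8 TPM in the antagomir libraries, against 36.6, 47.3 and 40.9 TPM in the vehicle libraries. Tcf7l1, a factor known mainly as a repressor, had 32.04, 25.4 and 27.2 TPM in the antagomir libraries, against 29.2, 33.3 and 24.8 TPM in the vehicle libraries. The groups overlapped, with log2 fold changes of -0.036 ± 0.17 (SE) for Tcf7l2 and -0.095 ± 0.19 for Tcf7l1.

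Lef1 (ENSMUSG00000027985.14, chromosome 3, 131110471 to 131224356, + strand in GRCm38), an activating factor, had 58, 56 and 51 counts in the antagomir libraries, against 3, 45 and 15 counts in the vehicle libraries. In CPM these were 3.53, 3.75 and 2.89 CPM in the antagomir libraries, against 0.169, 2.75 and 0.762 CPM in the vehicle libraries. The antagomir libraries lay close together and above the vehicle libraries, of which replicate 2 was nearly as high as antagomir replicate 3 and replicate 1 was at the floor of 3 counts. The log2 fold change was 1.47 ± 0.91 (SE, unadjusted p = 0.144, edgeR adjusted p = 0.949), and leaving out vehicle replicate 1 gave 0.96, leaving out vehicle replicate 2 2.84. Tcf7, the fourth factor, had 100, 13 and 67 counts in the antagomir libraries, against 135, 47 and 129 counts in the vehicle libraries. Antagomir replicate 2 was the lowest library for Tcf7 and vehicle replicate 1 the highest. The groups overlapped, the log2 fold change was -0.66 ± 0.72 (SE, edgeR adjusted p = 0.953), and without antagomir replicate 2 it was -0.20.

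Ror2 had the largest fold change of the Wnt genes tested, at a low level. Like Lef1, it passed the filter on low counts only with its antagomir libraries, the group in which it was high. Ror2 (ENSMUSG00000021464.14, chromosome 13, 53109312 to 53286124, - strand in GRCm38) and Ror1 are receptor tyrosine kinases that bind Wnt5a, and Vangl2 is a core membrane protein of planar polarity. Ror2 had 66, 32 and 89 counts in the antagomir libraries, against 24, 1 and 0 counts in the vehicle libraries. In CPM its values were 4.01, 2.14 and 5.05 CPM in the antagomir libraries, against 1.35, 0.0612 and 0 CPM in the vehicle libraries. The single count of vehicle replicate 2 was in a short non-coding transcript, so Ror2 was left out of the comparison of coding shares. The antagomir libraries all lay above vehicle replicate 1, and the other vehicle libraries were at or below the floor of 3 counts. The log2 fold change was 2.97 ± 1.33 (SE, unadjusted p = 0.055, edgeR adjusted p = 0.949). Over the summed counts, 187 with antagomir and 25 with vehicle, the scaled ratio was 8.21 (95% counting interval 5.39 to 13.02), counting error only. The fitted value ran from 2.40 without vehicle replicate 3 to 6.72 without vehicle replicate 1, the setting with the smallest adjusted p of any Wnt gene (0.235, edgeR). With all libraries it was 0.94 in limma on log2(TPM + 1), the lowest of the settings tried, and 4.66 in limma-voom, the highest.

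Ror1 was near the floor, with 22, 0 and 9 counts in the antagomir libraries, against 6, 15 and 0 counts in the vehicle libraries, and was not tested. Vangl2 had 23.2, 17.3 and 15.8 TPM in the antagomir libraries, against 19.9, 17.9 and 17.2 TPM in the vehicle libraries, with overlapping groups and a log2 fold change of 0.013 ± 0.24 (SE). Vangl2 was thus present in every library at more than 10 TPM, while Ror1 was listed at 0 in 1 library of each group.

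**Figure D4:**
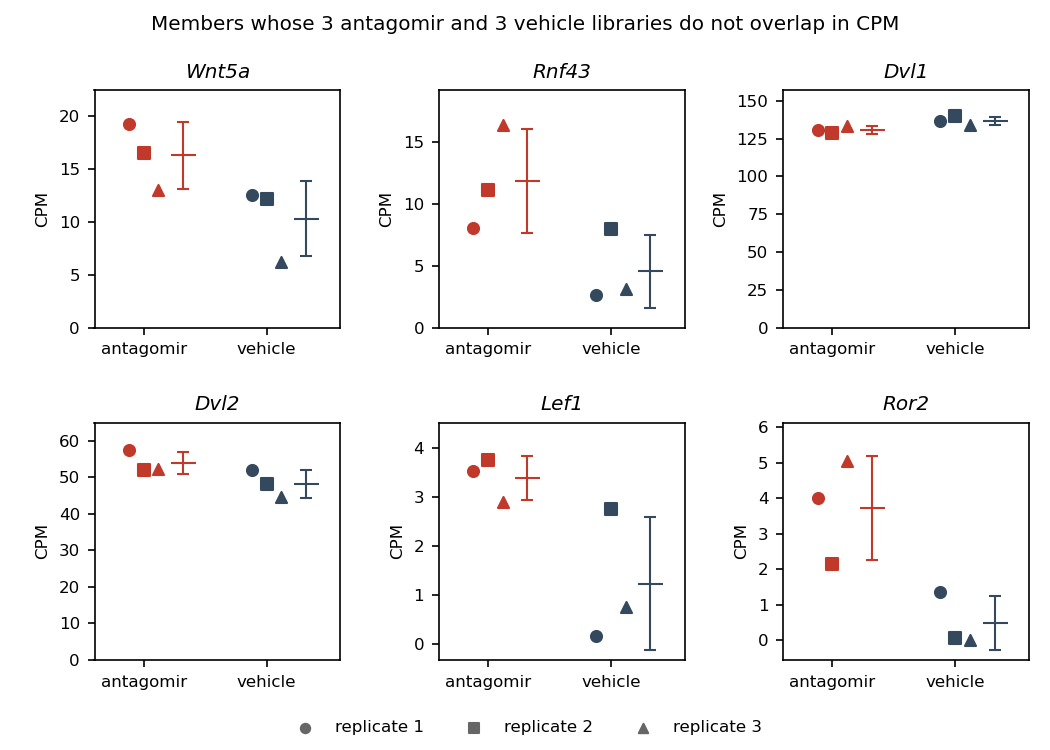
CPM in each library (symbols, antagomir left of vehicle) with the group mean and SD (bars) for the 6 Wnt genes whose groups did not overlap in CPM. For Ror2, Lef1 and Rnf43 the vehicle libraries differ widely among themselves, and for Dvl1 and Dvl2 the groups are nearly level.

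Markers of other cells also differed between these libraries. The 6 markers of dividing cells summed to 271, 237 and 272 TPM with antagomir, against 240.3, 80.05 and 73.1 TPM with vehicle, and all 6 had positive log2 fold changes (median 0.95). The 8 neuroblast markers summed to 1828, 886 and 835 TPM with antagomir, against 1134, 537 and 556 TPM with vehicle, again all positive (median 0.97), and 6 of 7 markers of oligodendrocyte precursors were positive (median 0.83), with sums of 439, 617 and 672 TPM with antagomir, against 298, 592 and 403 TPM with vehicle. Positive values were also found for 7 of 7 oligodendrocyte markers (median 0.39) and 5 of 6 markers of mature neurons (median 0.55). They were found for 1 of 8 markers of astrocytes and quiescent stem cells (median -0.22), 0 of 6 of ependymal cells (median -0.27), 0 of 8 of microglia (median -2.18, with the one high vehicle library noted above) and 2 of 4 tested of choroid plexus epithelium (median -0.043). Vehicle replicate 1, at 240.3 TPM of division markers, was close to the antagomir libraries in that sum. It held the lowest sums of the 6 libraries for markers of oligodendrocytes (6471 TPM) and of oligodendrocyte precursors (298 TPM). In CPM it held the lowest Lef1 and Rnf43 of the 6 libraries and the highest Ror2 of the vehicle libraries. In TPM the lowest Rnf43 was in vehicle replicate 3. Whether these cells have a part in the values of Ror2, Lef1, Rnf43 or Wnt5a was not tested. Of 8 endothelial markers, 3 stayed under 1 TPM in every library and the sum was 3.96 to 10.3 TPM with antagomir and 6.79 to 15.7 TPM with vehicle. The 7 markers of pericytes and fibroblasts summed to 40.3 to 61.5 TPM with antagomir and 46.95 to 56.7 TPM with vehicle, most of it from Pdgfrb and Col1a2, while Dcn, Lum and Kcnj8 were listed at 0 in every library.

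Neither branch lay wholly on one side of 0. The 13 canonical members (Lrp5, Lrp6, Wnt7a, Wnt7b, Ctnnb1, Axin1, Axin2, Apc, Gsk3b and the TCF and LEF factors) had 6 positive and 7 negative log2 fold changes, with a median of -0.036. Their summed level was 629, 608 and 598 TPM with antagomir, against 593, 575 and 552 TPM with vehicle, without overlap, an order that follows that of Ctnnb1. In CPM Ctnnb1 overlapped between the groups, and no share without overlap was worked out for sums of genes. The 6 planar polarity members (Wnt5a, Ror1, Ror2, Vangl2, Fzd3 and Fzd6) were at a lower summed level of 76.1, 87.9 and 71.9 TPM with antagomir, against 71.5, 87.9 and 81.6 TPM with vehicle, with overlapping groups. Of the 5 tested, 3 were positive and 2 negative, with a median of 0.013. The positive ones were Ror2, Wnt5a and, close to 0, Vangl2, and the negative ones the Frizzled receptors Fzd3 and Fzd6. Without Fzd3 and Fzd6 the median of the other 3 was 0.66, which is the value of Wnt5a. Leaving out the 2 negative values could only raise the median, so this is no support for a difference. Ror2 was tested only because of its antagomir libraries, as given above. The remaining 18 members, which act in or upstream of both branches, had 10 positive and 7 negative values among 17 tested, with a median of 0.11.

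Members with a seed match had fold changes on both sides of 0. The 10 with any match had 6 positive values and a median of 0.037, in a range of -0.23 to 0.18. The 25 tested members without one had 13 positive values and a median of 0.013, in a range of -0.66 to 2.97. Ror2, Lef1, Rnf43 and Wnt5a were among those without a match in the 3′ UTR searched. Coding transcripts other than the most abundant were not searched, so members counted as without a match may hold one there. In Fzd4, which held 3 matches, the log2 fold change was 0.11 ± 0.39 (SE).

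Libraries also differed from one another across members. Antagomir replicate 1 was the highest library for 12 of the 35 tested genes and the lowest for 7. Antagomir replicate 2 was the lowest for 10 and the highest for 2. Vehicle replicate 3 was the highest for 3 and the lowest for 7. These orders cut across roles, as in the Frizzled receptor Fzd1 and the TCF factor Tcf7 (both low in antagomir replicate 2). Within a role, Fzd4 and Fzd9 were both high in antagomir replicate 1.

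**Figure D5:**
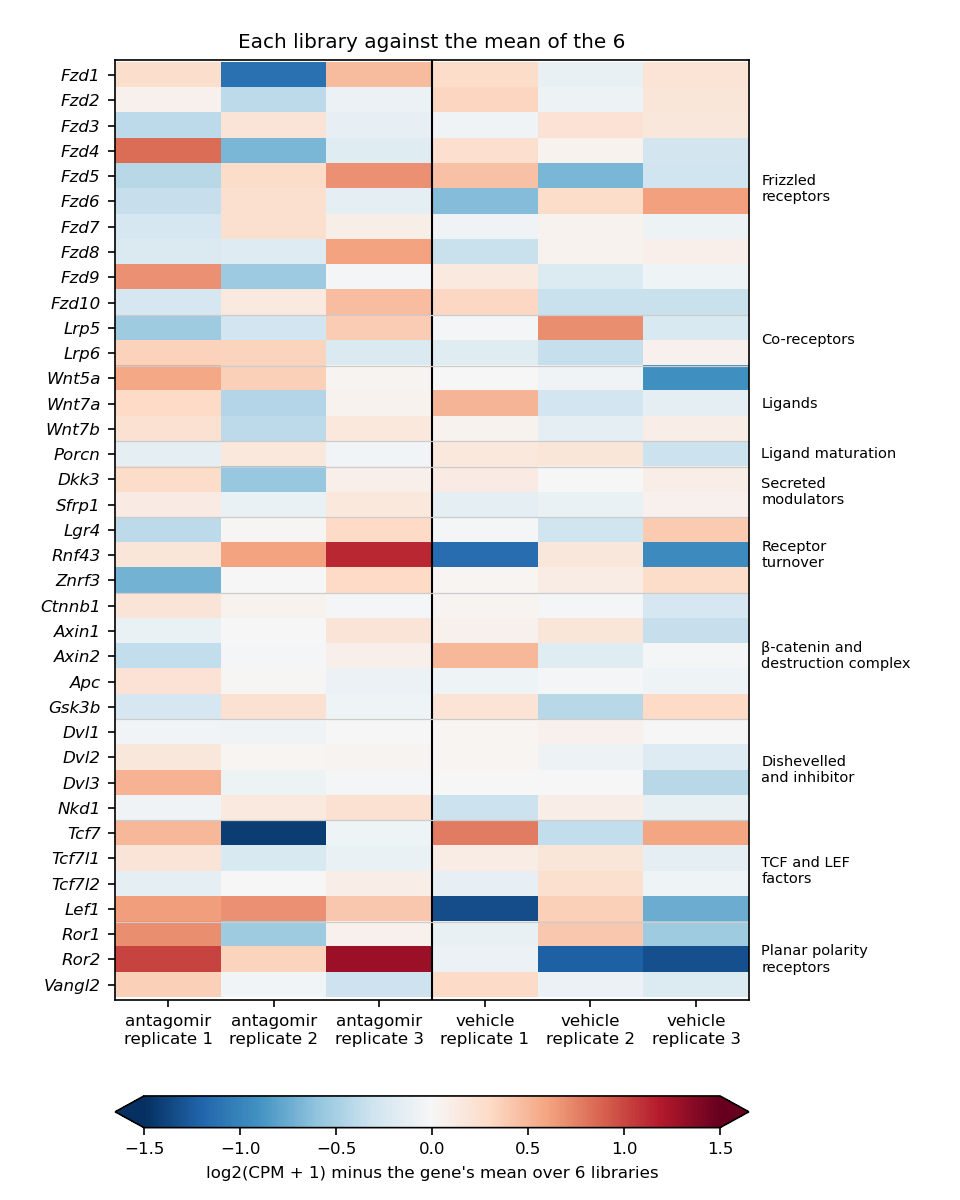
Deviation of each library from the mean of the 6 libraries in log2(CPM + 1), for the 37 Wnt genes, antagomir libraries left of the line and vehicle libraries right of it. Ror2, Lef1 and Rnf43 are red across the antagomir libraries and mostly blue or pale across the vehicle libraries, and most other rows mix colours within each group.

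Fold changes of the other genes of the pathway also lay on both sides of 0. Of 72 further Wnt pathway genes, 53 were tested and edgeR called 0, and 0 by DESeq2. At an unadjusted edgeR p under 0.05 there were 1 higher, Tnks2, and 1 lower, Amer1, where 2.18% of all genes lay higher and 1.93% lower. Positive values numbered 26 and negative values 27, with a median of -0.0053. Tnks2, a tankyrase that marks Axin for degradation, had 237, 233 and 207 CPM in the antagomir libraries, against 161, 193 and 171 CPM in the vehicle libraries, and the log2 fold change was 0.36 ± 0.14 (SE, edgeR adjusted p = 0.949). Amer1, a membrane anchor of Apc, had 11.4, 17.4 and 14.01 CPM in the antagomir libraries, against 23.1, 23.3 and 17.8 CPM in the vehicle libraries, and the log2 fold change was -0.59 ± 0.25 (SE, edgeR adjusted p = 0.949). In both genes the groups did not overlap in CPM. Of the 53 tested, 3 lay wholly higher with antagomir (Tnks2, Csnk1d and Csnk1a1) and 3 wholly lower (Amer1, Wnt5b and Wnt9a). Each is 5.66%, near the 5.07% of all genes that lay wholly higher and the 5.45% that lay wholly lower. Csnk1d, a kinase of Dishevelled, also had antagomir libraries above vehicle libraries, with a log2 fold change of 0.27 ± 0.13 (SE), and the co-repressor gene Tle1 had 0.38 ± 0.21, with overlapping groups.

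Of the 16 other Wnt ligands 5 passed the filter on low counts, and all 5 had negative log2 fold changes, with a median of -0.24. Wnt5b, a close relative of Wnt5a, had 16, 22 and 11 counts in the antagomir libraries, against 64, 35 and 47 counts in the vehicle libraries. Wnt9a had 16.4, 15.6 and 7.997 CPM in the antagomir libraries, against 17.6, 23.2 and 23.5 CPM in the vehicle libraries. The antagomir libraries lay below the vehicle libraries for both, with log2 fold changes of -1.40 ± 0.64 (SE, edgeR adjusted p = 0.949) for Wnt5b and -0.68 ± 0.32 (edgeR adjusted p = 0.949) for Wnt9a. For the other 3 ligands, Wnt3, Wnt4 and Wnt11, the value turned positive when antagomir replicate 1 was left out. Wls, which carries Wnt ligands to the cell surface, had 102, 105 and 104 TPM in the antagomir libraries, against 98.4, 103 and 114 TPM in the vehicle libraries, a log2 fold change of -0.069 ± 0.13 (SE). Sfrp2 was scarce, with 11, 10 and 15 counts in the antagomir libraries, against 5, 12 and 20 counts in the vehicle libraries.

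Among 11 further planar polarity genes, 5 had positive and 6 negative log2 fold changes. Celsr1, Celsr2 and Celsr3 encode the large cadherins that join polarised cells. Their log2 fold changes were -0.37 ± 0.24 (SE) for Celsr1, 0.014 ± 0.25 for Celsr2 and 0.47 ± 0.79 for Celsr3, and those of Celsr2 and Celsr3 turned negative on the TPM scale. Vangl1 had 31.8, 81.4 and 80.1 TPM with antagomir, against 44.7, 59.2 and 55.2 TPM with vehicle, with antagomir replicate 1 lowest. Prickle1 and Prickle2, cytoplasmic partners of Vangl proteins, had log2 fold changes of 0.40 ± 0.38 (SE) and 0.33 ± 0.18. That of Prickle1 ran widest over vehicle libraries, at 0.066 when replicate 1 was left out and 0.90 when replicate 2 was. Among the transcriptional targets, Ccnd1, a cyclin of G1 phase, had 18.6, 9.04 and 9.41 CPM in the antagomir libraries, against 19.2, 8.44 and 8.48 CPM in the vehicle libraries, and Myc had 14.96, 33.6 and 72.5 CPM in the antagomir libraries, against 38.1, 36.9 and 37.8 CPM in the vehicle libraries. The groups overlapped for both, and the 3 vehicle libraries of Myc lay within 2 CPM of one another while the antagomir libraries lay on both sides of them. The log2 fold change was 0.034 ± 0.45 (SE) for Ccnd1 and 0.10 ± 0.47 for Myc.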

How the data were processed

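kallisto, sleuth and mm10 are named in the submitters' processing notes, and their versions are not given in the sources used here. Estimated counts (expected counts) were deposited per transcript without normalization, and the deposited TPM values are scaled to effective transcript length and library total, per the file headers. Because 1 label field gives the antagomir as the treatment of every sample, groups and replicate numbers came from the titles.

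Of 99567 transcripts, 98294 (98.7%) matched GENCODE M21 (GRCm38) by identifier, and the rest (0.524 to 0.586% of counts) were left out. Estimated counts and TPM were summed per gene, and counts rounded. Reads shared by similar transcripts were divided by kallisto's model, and the cDNA kit does not mark strand, so overlapping genes and near-identical copies are uncertain. No pair of libraries agreed within sampling noise (chi-square per gene 23.65 to 98.62 over 15 pairs).

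The test between groups was edgeR 4.0.16 under R 4.3.3 (TMM scaling, filterByExpr with a minimum count of 10, robust quasi-likelihood, group as the only term, Benjamini-Hochberg adjustment over 15012 genes, two-sided, threshold 0.05). CPM values use TMM-scaled library sizes. The biological coefficient of variation was 36.2%. On simulated counts for this comparison (14735 genes), 1, 10, 34 and 47 of 50 genes changed by 1.5, 2, 4 and 8-fold were recovered, with 7 false calls. The changed genes were drawn only from genes with a higher mean CPM than Ror2, Lef1 and Tcf7, so the recovery does not apply to these. An exact two-sided test of 3 against 3 cannot give a p below 0.1. Alternatives were other scaling, filters, DESeq2 1.42.0, limma 3.58.1 (voom, and log2(TPM + 1)), effective length offsets, a replicate block and leaving out each library. Figures were drawn with matplotlib.

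The members and lists were chosen with earlier results of these data known. Values are given for every member, and for the 8 further pathway genes with the smallest p and 10 named by function. Leaving out a library for counts of members without overlap, and the alternatives for further pathway genes, were added after seeing the data. Wnt3, Wnt4 and Wnt11 were also named after their values were seen.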

Additional observations from a re-analysis of the deposited data

How the results depend on the processing

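0 members were called under every alternative run. Over all genes DESeq2 called 5 and each other setting 0. With an unadjusted p under 0.05 there were 2 of 37 members without the filter on low counts (839 of 20802 genes) and 2 of 37 in DESeq2 (917 of 20746). There were 2 of 35 in limma on log2(TPM + 1) (740 of 15012 genes) and 3 of 35 in limma-voom (689 of 15012). Effective length offsets gave 0 of 35 (602 of 15012 genes). With 1 library left out there were 0 to 2 members, and 495 to 1133 genes. The replicate numbers were not taken as pairs: correlations of same-numbered libraries were 0.195, 0.0749 and 0.0275, and not every library correlated best with its own number. A replicate block gave 4 members and 1284 genes (616 without it), 0 called, with a smallest adjusted p of 0.210 (edgeR). Without vehicle replicate 1 there were 1133 genes at an unadjusted p under 0.05, and the smallest adjusted p was 0.0932 (edgeR), with 0 called. Leaving out 1 library, the median log2 fold change was -0.011 to 0.13 over the members, -0.071 to 0.073 over the canonical and -0.074 to 0.45 over the planar polarity members, and 5 to 8 members lay wholly higher (7.95 to 14.1% of all genes) and 2 to 3 wholly lower (8.95 to 12.9% of all genes). The planar polarity median was 0.31 without the filter and 0.31 in DESeq2. Without Fzd3 and Fzd6, the negative members, it was 0.66, the value of Wnt5a alone.

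Of the 35 tested members 14 had 1 sign throughout, and 445 of 488 alternative fold changes stayed on their side. Signs turned as follows, all uncalled. In limma-voom values were -0.0062 for Fzd4, -0.0036 for Wnt7b and -0.16 for Myc, and with the replicate block -0.020, -0.0054 and -0.17. On log2(TPM + 1), where the median of all genes was 0.044, they were 0.012 for Wnt7a, 0.036 for Porcn, 0.10 for Lgr4, 0.038 for Dvl1, -0.47 for Celsr2, -0.14 for Celsr3 and -0.023 for Myc. With length offsets they were 0.082 for Lgr4, -0.014 for Apc, -0.017 for Vangl2, -0.55 for Celsr2 and -0.16 for Celsr3. Leaving out 1 library gave -0.39 to 0.25 for Fzd1, -0.46 to 0.41 for Fzd4, -0.53 to 0.063 for Fzd6, -0.050 to 0.18 for Fzd7, -0.14 to 0.33 for Fzd8, -0.25 to 0.45 for Fzd9, -0.73 to 0.032 for Lrp5, -0.25 to 0.23 for Wnt7a, -0.099 to 0.19 for Wnt7b, -0.17 to 0.056 for Porcn, -0.28 to 0.11 for Dkk3, -0.23 to 0.17 for Lgr4, -0.47 to 0.014 for Znrf3, -0.082 to 0.17 for Axin1, -0.40 to 0.0099 for Axin2, -0.27 to 0.067 for Gsk3b, -0.23 to 0.0044 for Tcf7l1, -0.098 to 0.086 for Tcf7l2 and -0.20 to 0.19 for Vangl2, and -0.74 to 0.16 for Wnt3, -0.32 to 0.076 for Wnt4, -0.32 to 0.14 for Wnt11, -0.11 to 0.026 for Wls, -0.25 to 0.53 for Sfrp2, -0.10 to 0.43 for Vangl1, -0.23 to 0.23 for Celsr2, -0.66 to 1.21 for Celsr3, -0.63 to 0.50 for Myc and -0.39 to 0.56 for Ccnd1. The causes were not tested. At these depths a gene under 3 counts in a library is not told from absence.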
